A study of Homo sapiens with 6 samples.

Results

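Small nucleolar RNA host gene transcripts were examined in SW620 cells, a human line established from a colon cancer metastasis. They were the rows of the deposited count table named SNHG and a number, with GAS5, DANCR, ZFAS1, EPB41L4A-AS1, CYTOR, TUG1 and OIP5-AS1 added by name. This gave 35 genes of 60835 unique gene names, and 26 of the 35 passed the filter on low counts. The groups were 3 libraries of cells with a control hairpin vector (shControl, genotype WT) and 3 of cells described as a stable DNM1 Knockdown (shDNM1), all grown in high-glucose DMEM with serum. DNM1 encodes dynamin 1, a GTPase that cuts endocytic vesicles from the plasma membrane, and the comparison asks which transcripts differ between the control and knockdown vectors. The labels do not state whether replicates were grown as separate cultures, and p-values therefore measure only how these 6 libraries scatter, which may be technical scatter.

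Host genes carry small nucleolar RNAs (snoRNAs) in their introns. After splicing, the intron is trimmed to the snoRNA, which guides chemical modification of ribosomal and other RNAs: box C/D snoRNAs guide methylation of the ribose, box H/ACA snoRNAs the conversion of uridine to pseudouridine. The spliced exons remain as a long RNA, often with little coding capacity. Many such RNAs begin with a terminal oligopyrimidine (TOP) run, the start that ribosomal protein mRNAs also have, and several, GAS5 among them, are degraded by nonsense-mediated decay, which is coupled to translation. Several host RNAs are studied in colorectal cancer, where their levels are often reported as raised.

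The RefSeq promoter table (GRCh38.p14) held a window for 31 of the 35 genes. Because the start of the transcript is where a TOP run would lie, the 60 bases around the RefSeq start are shown for the 8 genes with the smallest p among those that passed the test below. The first 30 bases lie before the start and the next 30 begin with it. Capitals mark a C in the 11 positions from 5 bases before to 5 bases after the start that is followed directly by at least 4 C or T, on the gene's strand only. The stretches on the minus strand are SNHG7 at chr9:136728155-136728214, SNHG17 at chr20:38435299-38435358 and SNHG1 at chr11:62855856-62855915. Those on the plus strand are SNHG29 at chr17:16438957-16439016, SNHG3 at chr1:28505913-28505972, EPB41L4A-AS1 at chr5:112160496-112160555, CYTOR at chr2:87455397-87455456 and SNHG8 at chr4:118278732-118278791.
SNHG7: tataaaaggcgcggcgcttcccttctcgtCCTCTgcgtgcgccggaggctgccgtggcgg
SNHG29: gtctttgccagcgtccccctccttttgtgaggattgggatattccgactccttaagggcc
SNHG3: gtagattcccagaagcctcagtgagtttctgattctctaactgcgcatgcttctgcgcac
SNHG17: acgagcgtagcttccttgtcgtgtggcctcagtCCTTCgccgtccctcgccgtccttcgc
SNHG1: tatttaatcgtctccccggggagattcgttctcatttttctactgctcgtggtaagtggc
EPB41L4A-AS1: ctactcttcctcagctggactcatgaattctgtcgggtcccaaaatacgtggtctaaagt
CYTOR: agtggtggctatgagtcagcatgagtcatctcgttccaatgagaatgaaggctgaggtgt
SNHG8: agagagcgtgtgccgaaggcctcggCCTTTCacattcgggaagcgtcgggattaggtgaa
Such a run was in 13 of the 31 windows (41.9%), against 7408 of 35116 promoter windows of RefSeq (21.1%) and 2532 of 12917 windows of RefSeq lncRNA genes (19.6%). Of 65 cytosolic ribosomal protein genes with a window, 52 held it (80%). The host gene and ribosomal protein shares take a single window per gene, whereas the RefSeq shares take every window. SNHG7, SNHG17 and SNHG8 held it among the 8 shown, the others did not. A match is a description of these letters, and the RefSeq start agreed to the base with the start in the deposited table for only 3 of the 31 genes, EPB41L4A-AS1, SNHG21 and SNHG7.

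The libraries held 12844534 to 13537519 counts. The labels put shControl in batch_A and shDNM1 in batch_B, so batch and vector cannot be told apart. DNM1 (GRCh38 chromosome 9, 128191655 to 128255248) had 127, 127 and 133 CPM (counts scaled to library size with TMM factors) in shControl and 126, 97.8 and 125 CPM in shDNM1, a log2 fold change of -0.15 (SE 0.083) that did not pass the test (edgeR quasi-likelihood, adjusted p = 0.189). The second set is therefore called the libraries labelled shDNM1, and no direction below is tied to a measured loss of DNM1. Without shDNM1 replicate 1 DNM1 passed (log2 fold change -0.20, adjusted p = 0.0399), and without replicate 2 the change was -0.04 (adjusted p = 0.718). Of 12 intestinal epithelial markers 9 passed the filter, and CDX1 was at 0 counts in all 6 libraries. The epithelial markers summed to 8560 to 9352 CPM in shControl and 9919 to 11234 CPM in shDNM1. KRT8 carried most of that sum (mean 5776 and 6939 CPM), 5 of the 9 tested markers rose, EPCAM fell (420 and 372 CPM) and VIL1 did not pass (349 and 328 CPM). The 8 fibroblast markers summed to 31.8 to 39.3 and 43.2 to 57.6 CPM, with COL3A1 at 0 in each library. LUM carried most of that sum (mean 23.1 and 32.1 CPM). LUM and PDGFRB (1.85 and 4.93 CPM) rose, 2 of the 3 tested fibroblast markers, and COL1A1 did not pass (11.1 and 11.9 CPM). Of the 2 tested endothelial markers VWF rose (5.51 and 7.76 CPM) and PECAM1 did not pass. PAX8, the 1 tested kidney marker, did not pass (21.7 and 21.2 CPM). The 6 leukocyte markers summed to 4.12 to 4.98 CPM in shControl and 1.90 to 2.55 CPM in shDNM1, carried by LYZ (mean 3.82 and 1.72 CPM, called lower), with CD3E at 0 in all libraries. The part of these differences in the results below was not tested.

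Of the 26 host genes that passed the filter, 11 fell, 3 rose and 12 did not pass an adjusted p of 0.05. Across all 16744 genes tested, 31.9% were called, 16.2% lower and 15.6% higher. SNHG7, SNHG29, SNHG3, SNHG1 and EPB41L4A-AS1 were among those that fell, and SNHG17, CYTOR and SNHG15 were the 3 that rose. The median log2 fold change of the 26 was -0.26, against -0.01 for all genes tested and -0.13 for the 1174 RefSeq lncRNA genes tested, of which 178 fell and 71 rose. These sets were not matched for level. Median average log2 CPM was 5.19 for the host genes, 4.24 for all genes tested and 1.54 for the lncRNA genes. Fewer cells with a transcript and less of it per cell cannot be told apart in RNA from whole cultures. When limma was run on log2(TPM + 1) instead, 11 host genes were called lower and 1 higher, so that 91.7% of the calls were lower, against 78.6%. For all genes it called 2846 lower and 1801 higher, and the share lower was 61.2%, against 51% with TMM-scaled counts. The groups did not overlap for 12 of the 26 host genes in the lower direction and for 3 in the higher direction, against 23.1% and 21.2% of all genes tested (44.3% in either direction).

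**Figure D1:**
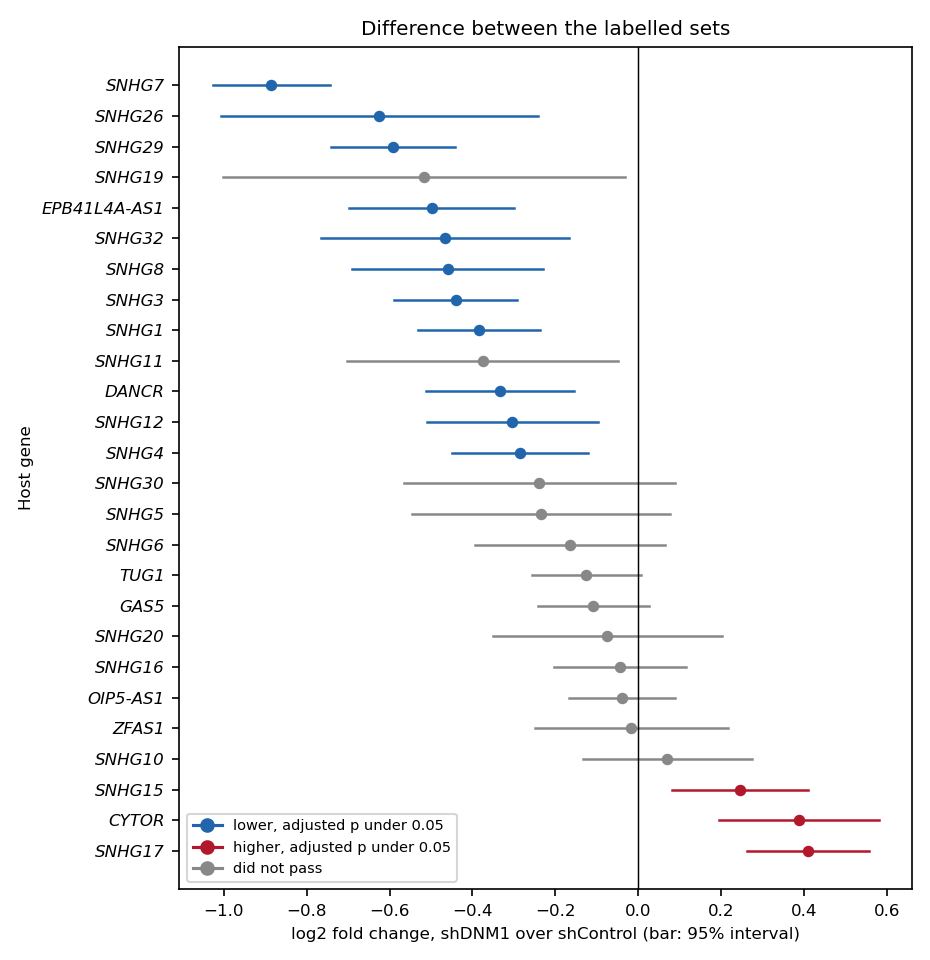
Log2 fold change of each of the 26 host genes that passed the low-count filter (x axis), with its 95% interval from the edgeR fit (bars), one host gene per line. Blue and red mark genes lower and higher at an adjusted p under 0.05. SNHG7 at -0.89 and SNHG17 at 0.41 are the ends of the range.

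On the level per transcript length (deposited TPM), SNHG29 was the most abundant host RNA in both sets, at 291 ± 6.74 TPM in shControl and 185 ± 13.6 TPM in shDNM1 (SD, n = 3). GAS5 at 149 ± 5.58 and SNHG1 at 143 ± 7.70 TPM followed in shControl and did not differ beyond their spread. SNHG7 at 124 ± 1.96 and SNHG3 at 114 ± 2.34 TPM came next. In the libraries labelled shDNM1 the order changed: SNHG17 went from rank 8 (88.4 ± 2.73 TPM) to rank 3 (113 ± 5.40 TPM), and SNHG7 from rank 4 to rank 9 (64.6 ± 0.758 TPM). Levels of SNHG17 and SNHG1 (105 ± 10.2 TPM) in shDNM1 did not differ beyond their spread. Over all 35 genes, summed CPM was 1775, 1776 and 1807 in shControl and 1468, 1553 and 1522 in shDNM1, 84.8% of the shControl mean. SNHG29, OIP5-AS1, SNHG1, GAS5 and TUG1 made up 53.5% ± 0.44 of that sum in shControl and 51.5% ± 0.54 in shDNM1 (SD, n = 3).

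**Figure D2:**
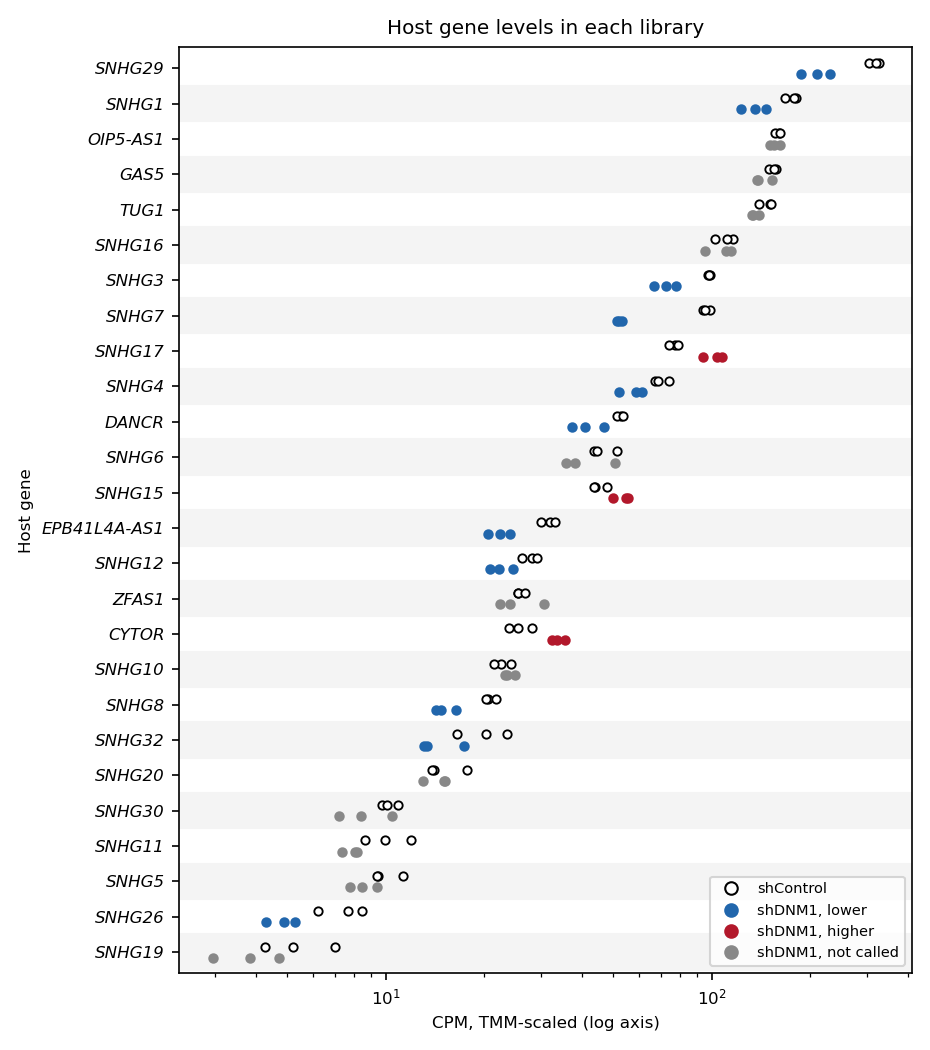
TMM-scaled CPM on a log axis (x) of the 26 host genes (y, ordered by shControl mean) in each library. Open circles are the 3 shControl libraries and filled circles the 3 libraries labelled shDNM1, blue where lower, red where higher and grey where the gene did not pass. The filled circles of SNHG7, at 51.1 to 53.2 CPM, stand apart from its open circles at 94.1 to 99.1 CPM.

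Among hosts of box H/ACA snoRNAs, judged by snoRNA rows of the deposited table that lie inside the gene on its strand, SNHG7 differed most. SNHG7 (ENSG00000233016, chromosome 9, 136721366 to 136728184, minus strand) holds SNORA17A and SNORA17B. It had 94.1, 99.1 and 95.1 CPM in shControl and 51.1, 53.2 and 51.8 CPM in shDNM1. Every shDNM1 value lay far below every shControl value, and the shDNM1 level was 54.1% of shControl (log2 fold change -0.89, SE 0.067, edgeR adjusted p = 2.04e-08). DIPK1B, which overlaps it on the other strand, had only 3.83 CPM in shControl and 3.21 CPM in shDNM1 and did not pass (adjusted p = 0.45). It is not given whether counting used strand, so reads of such pairs could have been exchanged.

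SNHG3 (chromosome 1, 28505980 to 28510892) carries SNORA73A and SNORA73B, copies of the U17 snoRNA that acts in the cutting of ribosomal RNA precursors. It had 98.6, 97.2 and 98.4 CPM in shControl and 72.4, 66.4 and 77.9 CPM in shDNM1. The shControl libraries were nearly equal and all 3 shDNM1 libraries lay below them (73.7% of shControl, log2 fold change -0.44, SE 0.071, edgeR adjusted p = 0.000106). Its start lies 37 bases from that of RCC1, a gene on the same strand that encodes a chromatin-bound regulator of nuclear transport and overlaps it, so their reads may be shared. RCC1 had a log2 fold change of -0.11 (SE 0.066, adjusted p = 0.225). The ratio of SNHG3 to RCC1 counts, which does not depend on library scaling, was 0.496, 0.499 and 0.517 in shControl and 0.427, 0.338 and 0.445 in shDNM1.

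EPB41L4A-AS1 (chromosome 5, 112160526 to 112164818), host of SNORA13, had 31.9, 33.0 and 29.99 CPM in shControl and 22.4, 24.2 and 20.7 CPM in shDNM1. The groups did not overlap and its level was 70.8% of shControl (log2 fold change -0.50, SE 0.095, edgeR adjusted p = 0.000542). SNHG4, which holds SNORA74A and SNORA74D, had 74.0, 67.2 and 68.3 CPM against 52.0, 58.4 and 61.3 CPM. All shDNM1 values were lower (log2 fold change -0.29, edgeR adjusted p = 0.00877), but without shControl replicate 1, its highest library, the adjusted p was 0.0666.

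SNHG12 (chromosome 1, 28578538 to 28583132) hosts snoRNAs of both classes, SNORA16A, SNORA61 and SNORD99. Its values were 26.3, 28.2 and 29.1 CPM in shControl and 20.9, 22.2 and 24.6 CPM in shDNM1, with no overlap (log2 fold change -0.30, SE 0.098, edgeR adjusted p = 0.0236). DESeq2 did not call it (adjusted p = 0.0562). Leaving out shControl replicate 2 or 3 gave adjusted p = 0.0639 and 0.0994, and leaving out shDNM1 replicate 1 or 2 gave 0.0595 and 0.0542.

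SNHG17 went the other way. SNHG17 (ENSG00000196756, chromosome 20, 38419638 to 38435409, minus strand) holds SNORA71A to SNORA71D, and had 77.1, 78.9 and 74.0 CPM in shControl and 94.0, 107 and 104 CPM in shDNM1. Each shDNM1 library was above each shControl library, 1.33-fold on average (log2 fold change 0.41, SE 0.070, edgeR adjusted p = 0.000194). SNHG11, whose start lies 10934 bases away on the opposite strand, holds the related SNORA71E. It had 9.97, 11.9 and 8.63 CPM against 8.15, 7.33 and 8.06 CPM, lower without overlap, and did not pass (log2 fold change -0.38, SE 0.155, adjusted p = 0.0745). These adjacent hosts of 1 snoRNA family thus lay on opposite sides of 0. That difference between them was not tested. SNHG10, the host of SCARNA13, a guide RNA of the Cajal body, overlapped between the groups (log2 fold change 0.07, adjusted p = 0.627).

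Among hosts of box C/D snoRNAs, SNHG29 (ENSG00000175061, chromosome 17, 16438767 to 16480249), which holds SNORD49A and SNORD49B, had 303, 325 and 319 CPM in shControl and 188, 230 and 210 CPM in shDNM1. As the most abundant host RNA it set the largest share of the summed difference. Its level was 66.3% of shControl with no overlap (log2 fold change -0.59, SE 0.071, edgeR adjusted p = 4.98e-06). LRRC75A, which overlaps it on the other strand, had a log2 fold change of 0.11 (adjusted p = 0.66).

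SNHG1 (chromosome 11, 62851978 to 62855953), the classic host gene of a row of C/D snoRNAs, holds SNORD22, SNORD25, SNORD26 and SNORD28 in the deposited table. It had 182, 168 and 179 CPM in shControl and 147, 136 and 123 CPM in shDNM1. The groups were apart and the level was 76.7% of shControl (log2 fold change -0.38, SE 0.070, edgeR adjusted p = 0.000368). Its start is 51 bases from that of SLC3A2, transcribed in the other direction, which encodes the heavy chain of large amino acid transporters. SLC3A2 also fell, from 397 ± 17.7 to 325 ± 24.5 CPM (SD, n = 3; log2 fold change -0.29, SE 0.066, edgeR adjusted p = 0.00257). The SNHG1 to SLC3A2 count ratio was 0.468, 0.403 and 0.466 in shControl and 0.494, 0.4 and 0.364 in shDNM1, and the groups overlapped.

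SNHG32, host of SNORD48 and SNORD52 in the major histocompatibility region, had 16.6, 20.3 and 23.6 CPM against 13.4, 17.4 and 13.1 CPM. It passed the test (log2 fold change -0.47, SE 0.143, edgeR adjusted p = 0.0177) although the groups overlapped. The adjusted p was 0.118 without shControl replicate 3 and 0.0874 without shDNM1 replicate 3. SNHG26, host of SNORD93, was one of the lowest members that passed the filter, at 7.67, 6.19 and 8.48 CPM against 5.28, 4.30 and 4.86 CPM. Its groups did not overlap (log2 fold change -0.62, SE 0.182, edgeR adjusted p = 0.0134), and the call was lost without shControl replicate 1 or 3 (adjusted p = 0.0526 and 0.0826).

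The other C/D hosts did not pass. SNHG6, which holds SNORD87, had 43.6, 44.5 and 51.3 CPM against 38.2, 50.5 and 35.8 CPM, so shDNM1 replicate 2 lay within the shControl range. Without that library its log2 fold change went from -0.16 (adjusted p = 0.276) to -0.33 (adjusted p = 0.013). The log2 fold change of SNHG6 was -0.07 (adjusted p = 0.726) without shDNM1 replicate 3, -0.09 (0.637) without shControl replicate 3 and -0.11 (0.477) without shDNM1 replicate 1. ZFAS1, host of the SNORD12 family, was also highest in shDNM1 replicate 2, with 22.4, 30.5 and 24.0 CPM in shDNM1 against 25.5, 25.5 and 26.8 CPM in shControl (log2 fold change -0.02, 95% interval -0.25 to 0.22). SNHG16 (SNORD1A to SNORD1C), SNHG5 (SNORD50B) and SNHG30 (SNORD7) had log2 fold changes of -0.04, -0.24 and -0.24, with adjusted p values from 0.246 to 0.704.

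For 9 of the 26 genes no snoRNA row lay inside the deposited coordinates, and for CYTOR, TUG1 and OIP5-AS1 the name of the set is thus not borne out by these coordinates. GAS5 and DANCR, known hosts, were also in this set, as were SNHG8, SNHG15, SNHG19 and SNHG20. A missing row therefore does not show that a gene hosts no snoRNA. In this set 2 fell and 2 rose. DANCR, a regulator of progenitor cell differentiation on chromosome 4 (52712325 to 52723623), had 52.9, 51.4 and 53.3 CPM against 40.9, 46.9 and 37.4 CPM. All shDNM1 values were lower (log2 fold change -0.33, SE 0.085, edgeR adjusted p = 0.00579). SNHG8 had 20.5, 20.3 and 21.8 CPM against 16.4, 14.8 and 14.3 CPM, also without overlap (log2 fold change -0.46, SE 0.110, edgeR adjusted p = 0.00349).

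CYTOR, a cytoskeleton-associated long RNA on chromosome 2 (87454781 to 87636740), had 25.4, 28.2 and 24.0 CPM in shControl and 33.6, 32.4 and 35.5 CPM in shDNM1. It was 1.31-fold higher with no overlap (log2 fold change 0.39, SE 0.092, edgeR adjusted p = 0.00335). CYTOR has a near-identical copy, MIR4435-2HG, with which reads could have been shared. MIR4435-2HG, named after its values were seen, had 83.0 ± 2.14 and 88.9 ± 4.36 CPM (SD, n = 3) and did not pass (log2 fold change 0.10, adjusted p = 0.286). With TPM values the CYTOR call was lost (adjusted p = 0.0795 on the log2(TPM + 1) scale).

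SNHG15 had 47.6, 43.9 and 43.6 CPM against 55.5, 49.7 and 54.8 CPM (log2 fold change 0.25, SE 0.078, edgeR adjusted p = 0.0217). Its higher shDNM1 values did not overlap shControl, yet leaving out shControl replicate 2 or 3 ended the call (adjusted p = 0.089 and 0.113), as did leaving out shDNM1 replicate 3 (0.074). Scaling by library size alone and TPM values gave adjusted p = 0.0567 and 0.132.

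GAS5 is best known for rising in growth arrest and is described as a TOP gene, although the window around its RefSeq start held no run by the rule above. It had 157, 150 and 155 CPM in shControl and 139, 138 and 153 CPM in shDNM1. One shDNM1 library lay within the shControl range, and the change did not pass (log2 fold change -0.11, 95% interval -0.24 to 0.03, adjusted p = 0.217). TUG1, a long RNA that RefSeq types as protein-coding, had 151, 140 and 152 CPM against 140, 133 and 134 CPM. Its groups did not overlap, by a narrow margin, and the difference did not pass (log2 fold change -0.12, adjusted p = 0.143). OIP5-AS1 at 161, 157 and 162 CPM against 151, 155 and 162 CPM showed overlap (log2 fold change -0.04, 95% interval -0.17 to 0.09). SNHG20 and SNHG19 did not pass either, with log2 fold changes of -0.07 (adjusted p = 0.71) and -0.52 (adjusted p = 0.0975). SNHG19 had 38 to 91 counts a library, which limits its precision.

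The remaining 9 genes were below the filter. SNHG18, SNHG27 and SNHG28 had 0 counts in all 6 libraries, which allows up to 3 counts in a library, or 0.222 to 0.234 CPM, for counting error only. SNHG9, SNHG14, SNHG21, SNHG25 and SNHG31 had at most 14 counts in any library. SNHG22, host of SCARNA17, had 9, 4 and 9 counts in shControl and 2, 0 and 0 in shDNM1. Tested without a low-count filter, SNHG22 was the only one of these genes called lower (adjusted p = 0.0105). Its start lies 12 bases from that of ACAA2, a gene of mitochondrial fatty acid breakdown on the opposite strand, which fell from 20.2 ± 0.73 to 14.9 ± 1.94 CPM (SD, n = 3; edgeR adjusted p = 0.00793).

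Features that the choice of genes did not use were set beside the calls. Across all genes tested, 16.2% fell and 15.6% rose. Of the 11 tested host genes with a pyrimidine run at the RefSeq start, 6 fell and 1 rose (median log2 fold change -0.30). Of the 13 without such a run, 5 fell and 1 rose (median -0.24). SNHG6 and SNHG15 had no window. By guide class, 4 of the 9 with box C/D rows alone fell and 0 rose (median -0.24). Of the 7 with H/ACA or small Cajal body RNA rows alone, 4 fell and 1 rose (median -0.38). SNHG12, with rows of both classes, fell, and of the 9 without snoRNA rows 2 fell and 2 rose (median -0.11). GAS5, a known host described as a TOP gene, was counted here as having neither rows nor a run. Since the features can miss in this way, the split cannot show whether either goes with the calls, which was not tested. Spread between libraries was wider in shDNM1: the median coefficient of variation of the 26 genes was 5.04% in shControl and 8.26% in shDNM1, against 7.83% and 10.5% over all genes tested.

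Genes beside the host genes, overlapping them or starting within 1000 bases, followed no common direction. ZNFX1, an RNA helicase gene of antiviral defence that starts 248 bases from ZFAS1 on the other strand, rose from 70.5 ± 3.02 to 114 ± 8.005 CPM (SD, n = 3; log2 fold change 0.69, edgeR adjusted p = 8.58e-07) beside a ZFAS1 change of -0.02. The ZFAS1 to ZNFX1 count ratio went from 0.35, 0.357 and 0.4 to 0.215, 0.258 and 0.203. MORC2 and ZBTB37, which start 471 bases from TUG1 and 800 bases from GAS5, had log2 fold changes of 0.11 and 0.11 and did not pass. BARD1, the partner of BRCA1, starts 498 bases from SNHG31 and fell (log2 fold change -0.59, edgeR adjusted p = 0.000161), with SNHG31 itself below the filter. UBE3A overlaps the end of the very long SNHG14, which is antisense to UBE3A and silences its paternal copy in neurons. UBE3A fell from 131 ± 5.55 to 81.3 ± 1.72 CPM (log2 fold change -0.69, edgeR adjusted p = 2.62e-07), while SNHG14 had 5 to 13 counts a library.

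Of the other overlapping genes, SEC14L1 beside SNHG20 and GLRX5 beside SNHG10 rose (log2 fold changes 0.49 and 0.42, edgeR adjusted p = 3.12e-05 and 0.000159). MYO5B, at the SNHG22 locus, fell (log2 fold change -0.32, adjusted p = 0.0116, and 0.0663 without shControl replicate 3). PRSS12 beside SNHG8 and SIL1 beside SNHG4 rose (log2 fold changes 1.36 and 0.42, adjusted p = 0.0224 and 0.0474). PRSS12 had only 6, 6 and 7 counts in shControl and 16, 21 and 11 in shDNM1. DESeq2 called neither gene (adjusted p = 0.0634 for PRSS12 and 0.0517 for SIL1). The groups of SIL1 overlapped. Its call was also lost with library size alone (adjusted p = 0.0709), the GC trend removed (0.0718) and limma on log2(TPM + 1) (0.128). The PRSS12 call ended when any 1 shControl library was left out (adjusted p from 0.0646 to 0.08) and when shDNM1 replicate 2 was (0.109). That of SIL1 ended when any 1 shControl library was left out (adjusted p from 0.0504 to 0.143) and when shDNM1 replicate 2 or 3 was (0.253 and 0.0848).

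**Figure D3:**
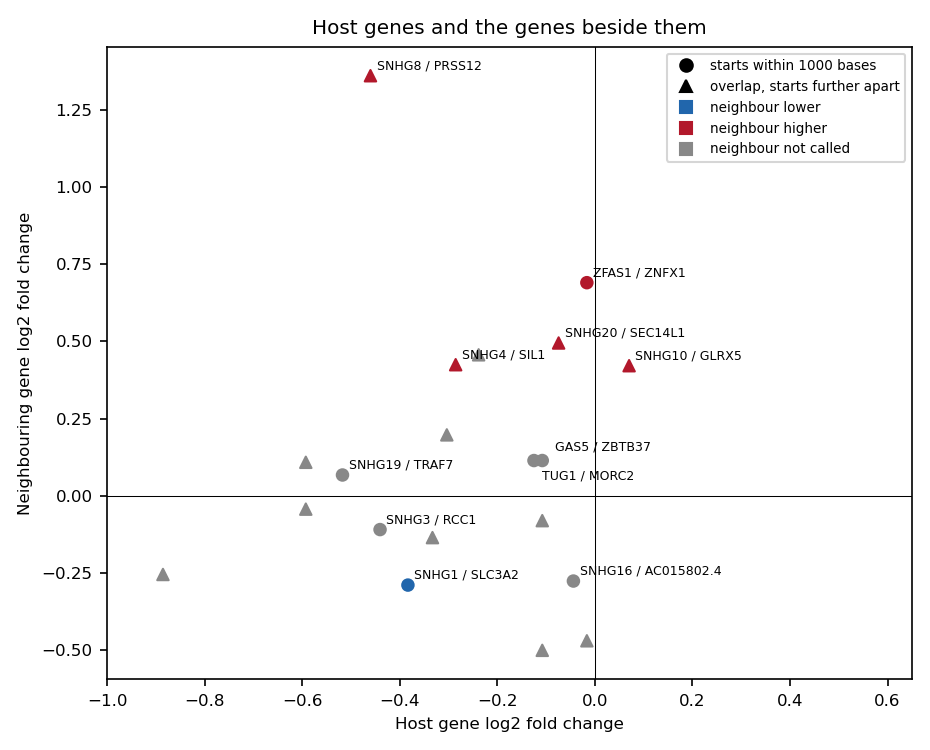
Log2 fold change of each tested host gene (x) and of a gene that overlaps it or starts within 1000 bases (y). Circles are pairs with starts within 1000 bases and triangles overlapping pairs with starts further apart, coloured by the neighbour's call. SNHG1 and SLC3A2 lie in the lower left, while ZNFX1 at 0.69 stands above a ZFAS1 near 0.

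The proteins that bind snoRNAs were then examined. Of the 8 core proteins of the snoRNA particles 3 rose and 0 fell (median log2 fold change 0.06). That is 37.5% called, against 31.9% of all genes tested. DKC1, the pseudouridine synthase of H/ACA particles, had 199 ± 7.69 and 248 ± 7.50 CPM (SD, n = 3; log2 fold change 0.32, edgeR adjusted p = 0.000538). NOP10, a small H/ACA protein, rose from 52.2 ± 3.34 to 69.0 ± 9.14 CPM (adjusted p = 0.00231), and SNU13, which binds the kink-turn of C/D snoRNAs, from 155 ± 8.51 to 190 ± 9.04 CPM (adjusted p = 0.00182). NOP56, a C/D core protein, did not pass (log2 fold change 0.10, adjusted p = 0.213). Of 12 assembly factors 2 rose, COIL, the scaffold of Cajal bodies (log2 fold change 0.45, adjusted p = 0.000508), and NUFIP1 (0.38, adjusted p = 0.00836). ZNHIT3 fell (log2 fold change -0.33, adjusted p = 0.0142), so that 25% of the assembly factors were called. NUFIP1 did not pass without shDNM1 replicate 3 (adjusted p = 0.0552), which left 1 assembly factor higher. ZNHIT3 did not pass without shControl replicate 2 (adjusted p = 0.079), which left 0 lower, and 2 were lower without shDNM1 replicate 2. With TPM values 1 assembly factor was higher and 4 were lower, and 3 were lower with library size alone, with the replicate block and with the GC trend removed. RUVBL1, a helicase of the assembly complex, did not pass (log2 fold change -0.16, adjusted p = 0.0689) but was lower with library size alone (adjusted p = 0.0207) and with TPM values (0.0155).

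Rows for snoRNAs themselves were nearly empty in these mRNA libraries. Of 496 snoRNA and small Cajal body RNA rows 21 passed the filter and 1 of these was called (4.76%, against 31.9% of all genes tested). It was SNORA33, which went from 0.605 ± 0.064 to 1.33 ± 0.33 CPM (SD, n = 3; edgeR adjusted p = 0.0405). Leaving out any 1 shControl library ended that call (SNORA33 adjusted p from 0.088 to 0.132), as did leaving out shDNM1 replicate 2 or 3 (0.152 and 0.0864). Among the tested ones inside a host gene, SNORA73B in SNHG3 and SNORA71B in SNHG17 did not pass (log2 fold changes -0.41 and -0.34, adjusted p = 0.431 and 0.411). Levels of the mature snoRNAs cannot be read from these libraries.

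Ribosomal protein mRNAs share the TOP start. Of 79 tested cytosolic ribosomal protein genes 14 fell and 0 rose, with a median log2 fold change of -0.06. The share that fell was 17.7%, near the 16.2% of all genes tested, of which 15.6% rose. RPL22 went from 121 ± 1.95 to 89.7 ± 1.98 CPM (SD, n = 3; log2 fold change -0.43, edgeR adjusted p = 3.39e-05), and RPL3, RPL13A and RPL29 had log2 fold changes of -0.36, -0.33 and -0.29. The count that fell was 26 without shDNM1 replicate 2, 8 without shControl replicate 2 or shDNM1 replicate 3, and 22 with library size alone, and 1 gene rose without shDNM1 replicate 1. Of 24 tested translation factors and other genes of the TOP class 5 fell (20.8%) and 0 rose (median -0.08). Among those that fell were the histone chaperone gene NAP1L1 (log2 fold change -0.40, adjusted p = 0.000114) and TPT1 (-0.37, adjusted p = 0.00131). VIM and NACA fell too (-0.31 and -0.27, adjusted p = 0.0033 and 0.0195). NACA did not pass without shControl replicate 1 or 3 (adjusted p = 0.0605 and 0.0771) or without shDNM1 replicate 3 (0.132), and 3 genes of the list fell without any 1 of these libraries. Without shDNM1 replicate 1, 1 gene of the list rose, and with library size alone 11 fell.

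Protein-coding genes that host snoRNAs, a list that overlaps the ribosomal one, did not move together. Of 52 tested, 10 fell and 5 rose (median log2 fold change -0.03), 28.8% called against 31.9% of all genes tested. Without shDNM1 replicate 1, 9 rose. The translation factor gene EIF4G2 rose from 1069 ± 18.8 to 1426 ± 75.6 CPM (SD, n = 3; log2 fold change 0.42, edgeR adjusted p = 3.69e-05). WDR43, of the small ribosomal subunit processome, and HSPA9, a mitochondrial chaperone, also rose (0.35 and 0.32, adjusted p = 0.000326 and 0.000437).

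**Figure D4:**
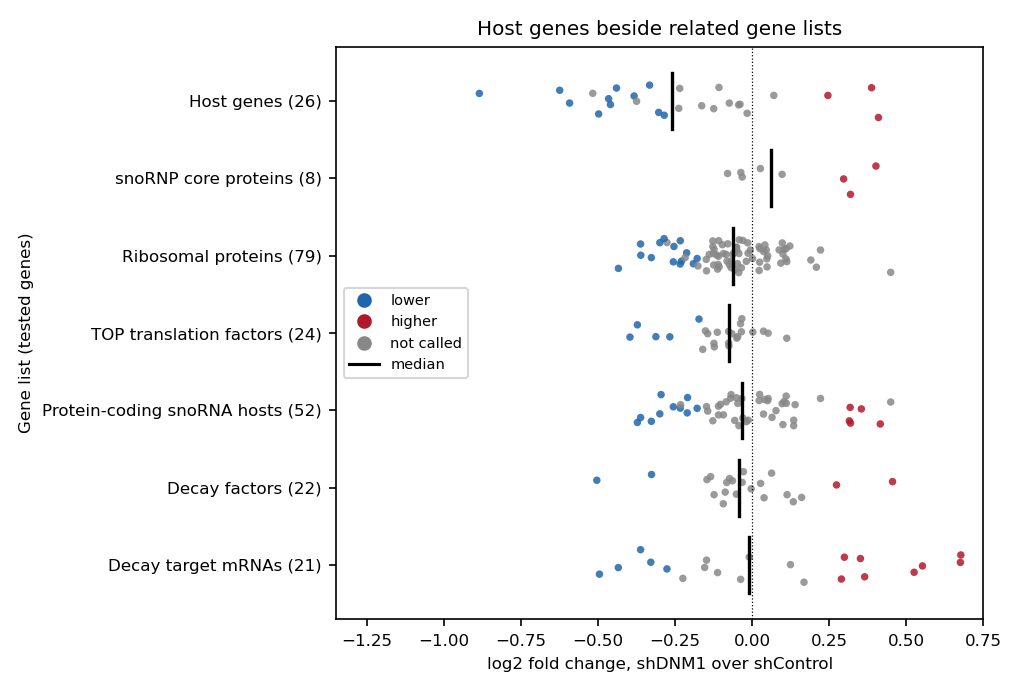
Log2 fold change (x) of every tested gene in 7 lists (y, number tested in brackets). Points are genes, coloured by call, with vertical scatter for legibility, and the black bar is the list's median. The host gene median lies at -0.26, the ribosomal protein median at -0.06 and the snoRNA particle core median at 0.06.

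Nonsense-mediated decay removes several host RNAs, so its factors were listed as well. Of 22 tested 2 rose and 2 fell (median log2 fold change -0.04), 18.2% called against 31.9% of all genes tested. The decapping enzyme gene DCP2 and the kinase gene SMG1, which phosphorylates UPF1, rose (log2 fold changes 0.46 and 0.27, edgeR adjusted p = 5.68e-05 and 0.00159). RBM8A, of the exon junction complex, and UPF3B fell (-0.50 and -0.33, adjusted p = 0.000186 and 0.00993). UPF3B did not pass without shControl replicate 1 or 3 (adjusted p = 0.0528 and 0.0519) or without shDNM1 replicate 3 (0.0552), each of which left 1 factor lower. Without shDNM1 replicate 1 the counts were 3 higher and 4 lower. Of 21 protein-coding genes known as targets of this decay 8 rose and 5 fell (61.9% called, median -0.01), with 5 higher without shControl replicate 3. The balance turned with the scaling: 7 rose and 7 fell with library size alone, and 5 rose and 7 fell on the log2(TPM + 1) scale. The stress gene GADD45A rose from 178 ± 10.3 to 285 ± 9.53 CPM (SD, n = 3; log2 fold change 0.68, adjusted p = 2.65e-07) and the cystine transporter gene SLC7A11 rose too (0.53, adjusted p = 9.21e-06). The splicing factor genes SRSF6 and TRA2B fell (-0.43 and -0.33, adjusted p = 3.46e-05 and 0.000362).

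Factors that act on TOP mRNAs and transcription factors known to act on host genes were examined last. LARP1, the protein that holds TOP mRNAs when mTOR is low, fell from 446 ± 15.6 to 335 ± 27.7 CPM (SD, n = 3; log2 fold change -0.42, edgeR adjusted p = 0.000108). Of the 14 genes listed with it, itself included, 2 fell and 1 rose (median 0.01), 21.4% called against 31.9% of all genes tested. TIAL1 fell (-0.22, adjusted p = 0.0108, and 0.0749 without shControl replicate 1, which left 1 of the list lower), and RPS6KB1, the S6 kinase gene, rose (0.34, adjusted p = 0.0192). RPS6KB1 did not pass without shControl replicate 2 or 3 (adjusted p = 0.113 and 0.0503), which left 0 of the list higher, nor without shDNM1 replicate 1 (0.0869). SSB, the La protein gene, did not pass (0.23, adjusted p = 0.0515) but passed without shDNM1 replicate 2 or 3 (adjusted p = 0.0239 and 0.037, with 2 of the list higher in each case). SSB also passed with DESeq2, RLE scaling, the replicate block, the GC trend removed and either other low-count filter setting (adjusted p from 0.00416 to 0.0433). With DESeq2, RLE scaling or the block, 3 of the list were higher. MYC, an activator of several host genes, rose from 414 ± 12.5 to 613 ± 64.1 CPM (log2 fold change 0.57, adjusted p = 7.91e-06) and STAT3 rose (0.32, adjusted p = 0.00158), whereas CREB1 fell (-0.38, adjusted p = 0.00162).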

How the data were processed

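RNA of 6 SW620 libraries was measured, 3 for each vector, and groups were taken from the sample titles. The authors deposited raw read counts per gene, and GRCh38 is the build in the submitters' processing notes. Sources used here do not name the aligner, counter or annotation. The second deposited table, named TPM, is handled as a score: repeated lines for 453 gene names push the deposited column sums past what TPM allows. Lines that shared a name had identical values in both tables and were collapsed, leaving 60835 of 62710 lines. Unused per-sample columns numbered 0.

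Counts were compared with edgeR 4.0.16 (R 4.3.3; filterByExpr, TMM, two-sided quasi-likelihood F test, Benjamini-Hochberg over 16744 genes, threshold 0.05). An adjusted p in the text is from this test unless another tool is named. CPM SDs are over 3 libraries. Gene names in the text were the host genes that passed the filter, up to 4 genes of each list with the smallest p and at most 2 called ones against the majority, and called neighbours. DNM1, some cell type markers, host genes below the filter, some neighbours that were not called and MIR4435-2HG were named as well. One result of the transcription factor list, and with it the list's counts, is not reported here. RefSeq supplied gene types and promoter sequences and GENCODE release 29 transcripts the GC content, which covered 96.7% of the genes tested. The edgeR step was checked on simulated counts. Alternatives used DESeq2 1.42.0 and limma 3.58.1, other scalings and filters, the replicate block, length and GC trends, and leaving out each library. The host genes, lists and tests were chosen with earlier results of these data known. Figures used matplotlib 3.10.9.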

Additional observations from a re-analysis of the deposited data

How the results depend on the processing

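Of 14 host genes called, 8 were called the same way under all 20 alternatives: SNHG7, SNHG29, SNHG3, SNHG1, EPB41L4A-AS1, SNHG8, DANCR and SNHG17. No result reversed past the threshold. Leaving out each library gave 2 to 3 host genes higher and 9 to 11 lower, 1903 to 2939 genes higher and 2034 to 2951 lower, and a DNM1 level (log2 fold change) from -0.2049 to -0.0373. With TPM values at a pseudocount of 1 or 0.1, 1 host gene was higher. At a threshold of 0.01, 1739 genes were higher and 1764 lower, with 2 host genes higher and 8 lower. DNM1 passed with the GC trend removed (log2 fold change -0.24, adjusted p = 0.0165) and with shDNM1 replicate 1 left out. The cause was not tested. SNHG11 passed with the GC trend removed (adjusted p = 0.0399) and without shControl replicate 3 (adjusted p = 0.0469), whereas without shControl replicate 2 the log2 fold change of SNHG11 shrank from -0.38 to -0.25 (adjusted p = 0.33).

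Replicate numbers are shared by the groups, but the labels do not say what they mark. The correlations of same-numbered deviations were 0.10, 0.06 and -0.03, and those of differently numbered ones -0.10 to 0.03. With 3 libraries a group, these values cannot tell whether same-numbered libraries had anything in common. With the replicate block, 3 host genes were higher and 11 lower, as without it, among 2964 genes higher and 3116 lower, and the DNM1 log2 fold change was -0.16. Host genes under 100 counts a library are limited by depth.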
